A study of Mus musculus with 17 samples.

Results

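The genes described here encode the cyclins E, A and B (*Ccne1*, *Ccne2*, *Ccna2*, *Ccnb1* and *Ccnb2*) and their partner kinases (*Cdk1* and *Cdk2*), with cyclin F (*Ccnf*) and the phosphatases *Cdc25a* and *Cdc25b*. They were chosen by symbol, and all 10 were found among the 21848 genes that every library listed. The cells were mouse germinal centre (GC) B cells from lymph nodes, profiled by droplet single-cell mRNA sequencing from the 5′ end, with hashtag antibodies marking the mouse of origin. Unique molecular identifiers (UMIs) were summed per mouse, and levels are given as CPM, the UMIs of a gene for every 1000000 UMIs of that mouse's cells.

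In the time course, B1-8hi B cells, which carry a receptor for the hapten NP, were transferred into CD45.1 hosts that were primed with OVA and immunized with NP-OVA. Some mice then received anti-DEC-OVA at day 7, an antibody fused to OVA that loads antigen onto B cells bearing DEC-205 and drives them through repeated dark-zone divisions. The groups were 0 h (day 7, 9 mice), 48 h untreated (6 mice), 48 h treated (9 mice), 72 h untreated (8 mice) and 72 h treated (7 mice). A larger experiment held 25 of these mice and a smaller one 14. The B cells were transferred and receptor-transgenic, so these groups describe a transfer model and not an unmanipulated response. In the reporter experiment, B cells carried a DHB–tdTomato allele at *Rosa26*, in some with H2B–GFP, whose product leaves the nucleus when CDK2 is active. GC B cells taken 72 h after anti-DEC-OVA were sorted by image into cytoplasmic (CDK2hi) and nuclear (CDK2low) reporter cells, with both fractions from 7 mice. Each fraction was a single library, so library and fraction cannot be told apart. A further experiment with an H2B–mCherry dilution allele held 3 mice each at day 7, at day 10 untreated and at day 10 treated, the last sorted for low mCherry.

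Cyclins are the regulatory subunits that switch on cyclin-dependent kinases, and they rise and fall in sequence. Cyclin E with CDK2 drives entry into S phase, cyclin A works with CDK2 and then CDK1 through S and G2 phase, and cyclin B with CDK1 drives mitosis. GC B cells alternate between rapid division in the dark zone and selection in the light zone, where most cells pause.

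Across the time course, 23698 cells were kept, from 292 to 1045 per mouse, with 1984430 to 13373200 UMIs per mouse. The B1-8hi receptor pairing was read in 9208 of 13625 kept cells of the larger experiment and in 4369 of 10073 of the smaller. The main fits used all kept cells, whether or not the pairing was read. The 48 h treated cells gave more UMIs than the others, with a median of 15385 UMIs per cell over mice against 8348 in 48 h untreated mice. The reporter experiment gave 11833 cells, from 278 to 1679 per mouse and fraction. The summed level of the GC B cell markers *Bcl6*, *Fas*, *S1pr2*, *Mef2b*, *Rgs13* and *Gcsam* lay between 1228 and 1705 CPM in every mouse of both experiments. The summed level of 5 T cell markers had a median of at most 8.08 CPM in any group and reached 51.9 CPM in 1 CDK2low mouse. The libraries of the time-course experiments shared 94 cell barcodes and the reporter libraries 6.

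Sequences upstream of 4 members are shown because they are the members with a match to the CHR or E2F-like motif described here. Each is the 200 bases before the canonical GENCODE start in GRCm39, 5′ to 3′ on the gene's strand. Capitals mark matches, on either strand, to CHR (TTTGAA or TTCGAA), the CCAAT box (CCAAT) and an E2F-like motif (TTTNNCGC). The *Ccnb2* stretch is chr9:70328875-70329074, the *Ccnf* stretch chr17:24470436-24470635, the *Cdk1* stretch chr10:69188769-69188968 and the *Cdk2* stretch chr10:128540964-128541163, all on the minus strand. The *Cdk1* stretch lies inside the annotated gene, which has a longer transcript, and the *Ccnf* stretch overlaps the 5′ start of its annotated gene.
Ccnb2: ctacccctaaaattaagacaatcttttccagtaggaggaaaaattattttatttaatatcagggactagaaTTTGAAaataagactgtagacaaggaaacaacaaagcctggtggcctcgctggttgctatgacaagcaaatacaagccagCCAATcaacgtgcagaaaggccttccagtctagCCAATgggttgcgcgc
Ccnf: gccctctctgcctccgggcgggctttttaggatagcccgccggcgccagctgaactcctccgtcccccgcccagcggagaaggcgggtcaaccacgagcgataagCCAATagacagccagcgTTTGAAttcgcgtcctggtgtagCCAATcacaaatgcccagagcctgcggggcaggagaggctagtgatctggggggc
Cdk1: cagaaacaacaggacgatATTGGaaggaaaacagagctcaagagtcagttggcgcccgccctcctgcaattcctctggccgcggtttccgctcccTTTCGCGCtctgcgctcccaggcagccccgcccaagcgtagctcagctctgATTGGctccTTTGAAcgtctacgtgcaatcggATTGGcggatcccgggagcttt
Cdk2: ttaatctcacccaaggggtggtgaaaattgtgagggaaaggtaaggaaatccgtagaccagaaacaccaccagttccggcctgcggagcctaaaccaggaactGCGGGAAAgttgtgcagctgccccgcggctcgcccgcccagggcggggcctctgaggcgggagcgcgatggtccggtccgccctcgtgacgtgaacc

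A CHR match was found for *Ccnb2*, *Ccnf* and *Cdk1*, 3 of the 10 members, against 13.1% of 21770 promoters of this length. The same 3 members and *Cdc25a* held 2 or more CCAAT boxes, against 8.91% of promoters. An E2F-like match was found for *Cdk1* and *Cdk2*, against 4.33% of promoters. *Ccne1*, *Ccne2*, *Ccna2*, *Ccnb1* and *Cdc25b* had no match in this window, which says only that these letters are not there. For *Ccne1*, *Ccne2* and *Cdc25b* the window lies inside the annotated gene, which starts farther upstream.

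The members were first placed in the cell cycle. Cells were classed as G0-G1, S or G2-M from 42 S and 52 G2-M genes, with the members left out of the scores. These levels describe the classes and were not tested, since the classes were made from the same cells. *Ccne1* and *Ccne2*, the E cyclins, were highest in the S class in 39 of 39 time-course mice. *Ccne1* averaged 60.9 ± 9.96 CPM in the S class (SD, n = 39) against 7.76 ± 4.58 in G0-G1 and 17.7 ± 4.67 in G2-M. *Ccne2* averaged 104 ± 19.2 CPM in S against 3.82 ± 3.10 in G0-G1. *Cdk2*, the partner kinase, and *Cdc25a*, the phosphatase that removes inhibitory phosphate from it, were also highest in the S class in all 39 mice. Of these 4 genes *Cdk2* varied least, from 32.2 ± 6.35 CPM in G0-G1 to 84.6 ± 10.1 in S and 49.4 ± 7.93 in G2-M.

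*Ccna2*, *Ccnb1*, *Ccnb2*, *Ccnf*, *Cdk1* and *Cdc25b* were highest in the G2-M class in 39 of 39 mice. *Cdk1*, the mitotic kinase, averaged 3.88 ± 2.63 CPM in G0-G1, 96.3 ± 13.5 in S and 309 ± 39.1 in G2-M. *Ccna2* stood at 361 ± 49.4 CPM in G2-M and *Ccnb1* at 237 ± 25.4. *Ccnb2*, the B cyclin found at the Golgi, kept 63.8 ± 26.2 CPM in G0-G1, where *Ccnb1* stood at 7.79 ± 4.02. *Cdc25b*, the phosphatase linked to mitotic entry, differed less, with 52.9 ± 17.2 CPM in G0-G1, 51.2 ± 11.4 in S and 110 ± 23.5 in G2-M.

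**Figure D1:**
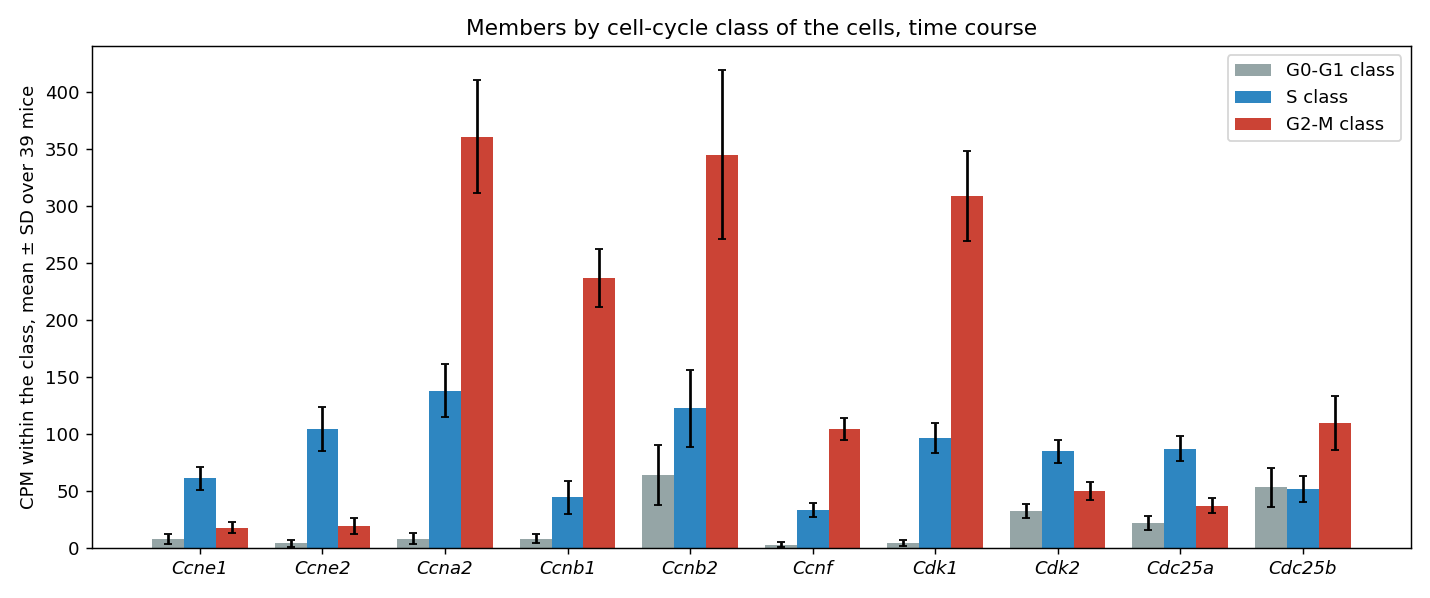
Mean level of each member within cells of the G0-G1, S and G2-M classes, in CPM, with bars for the mean and error bars for the SD over 39 time-course mice. *Ccne1*, *Ccne2*, *Cdk2* and *Cdc25a* peak in the S class and the other 6 members in the G2-M class.

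The first comparison asked how the members stood 48 h after anti-DEC-OVA. All 10 rose against 48 h untreated mice, with a median log2 fold change of 0.51 against 0.01 over all genes tested. The change was common, since 26.3% of the 10220 genes tested were called higher (edgeR quasi-likelihood test, Benjamini-Hochberg adjusted p below 0.05). The values below rest on 9 treated and 6 untreated mice. Fold changes carry TMM scaling, which evens out library composition, and a term for the experiment. The printed CPM carry neither, so a small fold change can have the opposite sign to the CPM. In whole-population sums, more cells of a phase and more RNA per cell cannot be told apart.

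Among the E cyclins, *Ccne1* ran from 36.6 to 44.8 CPM in treated mice (median 41.3) and from 21.9 to 38.1 in untreated mice (median 26.6). The groups overlapped only through the highest untreated mouse, and the log2 fold change was 0.59 ± 0.10 (SE, edgeR adjusted p = 4.22e-06). *Ccne2* ran from 47.8 to 81.4 CPM (median 51.4) against 34.0 to 64.6 (median 39.6), with overlap when both experiments were pooled. Its log2 fold change was 0.57 ± 0.10 (SE, edgeR adjusted p = 2.06e-05). *Cdk2* ran from 60.3 to 68.2 CPM (median 66.0) against 48.3 to 58.4 (median 54.7), with no overlap. The rise was small, at 0.33 ± 0.06 (SE, edgeR adjusted p = 3.47e-05).

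In the fit of both experiments, *Ccnb1* rose most among the members. It ran from 131 to 171 CPM in treated mice (median 152) and from 93.6 to 116 in untreated mice (median 102). Every treated mouse stood above every untreated one, with a log2 fold change of 0.66 ± 0.09 (SE, edgeR adjusted p = 1.83e-07). In the smaller experiment alone, *Ccne1* (0.67) and *Ccne2* (0.62) stood above *Ccnb1* (0.53). *Ccna2* ran from 218 to 275 CPM (median 245) against 155 to 184 (median 177). *Cdk1* ran from 168 to 220 CPM (median 205) against 122 to 147 (median 143). Both were separated without overlap, with log2 fold changes of 0.55 ± 0.10 and 0.58 ± 0.10 (SE, edgeR adjusted p = 1.05e-05 and 4.86e-06). Thus 4 of 10 members, *Ccna2*, *Ccnb1*, *Cdk1* and *Cdk2*, did not overlap between the groups, against 8.42% of genes tested. These ranges pool both experiments. In a comparison added after the data were seen, 7 members were apart within each experiment, against 22.8% of genes. They were these 4 with *Ccne2*, *Ccnb2* and *Cdc25a*.

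*Ccnb2* had a log2 fold change of 0.47 ± 0.06 (SE, edgeR adjusted p = 1.48e-07), with medians of 244 CPM in treated and 189 in untreated mice. The lowest treated mouse, at 198 CPM, lay just under the highest untreated one, at 200.3. *Ccnf*, an F-box protein that marks other proteins for destruction, changed by 0.34 ± 0.08 (SE, edgeR adjusted p = 0.000855). It ran from 55.7 to 67.4 CPM (median 60.7) against 41.2 to 69.5 (median 47.4), and the highest untreated mouse, of the smaller experiment, exceeded all treated ones. Of the phosphatases, *Cdc25a* changed by 0.42 ± 0.06 (SE, edgeR adjusted p = 1.43e-06) and *Cdc25b* by 0.26 ± 0.06 (SE, edgeR adjusted p = 0.000554). *Cdc25a* ran from 53.8 to 71.1 CPM (median 62.7) against 40.3 to 63.4 (median 46.8). *Cdc25b* ran from 56.7 to 102 CPM (median 68.5) against 50.9 to 98.5 (median 59.0), and within each group every mouse of the smaller experiment stood above every mouse of the larger.

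**Figure D2:**
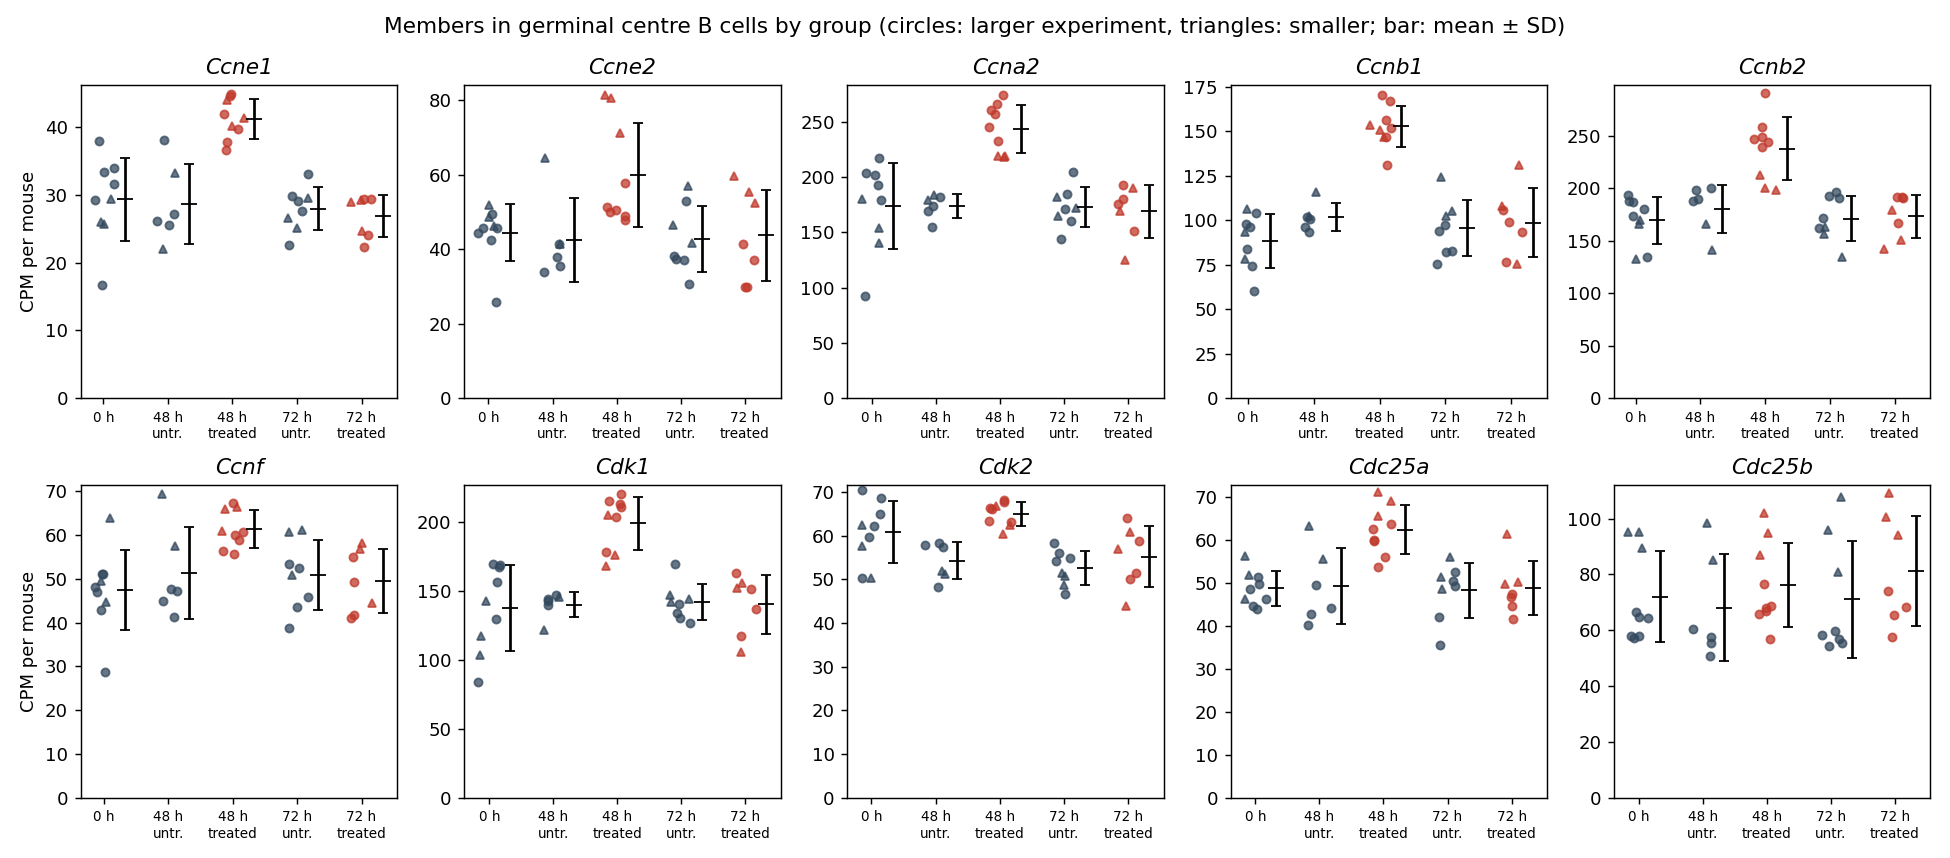
CPM of each member in every time-course mouse, by group, with circles for the larger experiment, triangles for the smaller one, red for treated mice and bars for the mean ± SD. By its median, the 48 h treated group is the highest for each member except *Cdc25b*.

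Within the larger experiment alone, all 10 members were called, with log2 fold changes from 0.27 for *Cdk2* to 0.68 for *Ccnb1*. In the smaller experiment, with 3 treated and 2 untreated mice, all 10 were positive and 6 were called. There *Ccna2* (0.34), *Ccnf* (0.09), *Cdc25a* (0.28) and *Cdc25b* (0.11) missed the threshold, with edgeR adjusted p of 0.0501, 0.656, 0.0568 and 0.485. When cells were thinned to 2871 UMIs and shallower cells left out (13.6% of untreated and 4.64% of treated cells at 48 h), all 10 were again called, from 0.25 for *Cdc25b* to 0.83 for *Ccnb1*. Scaling by library size alone left 38.0% of called genes higher in place of 55.4%, and all 10 members stayed called. Over all genes, edgeR called 2149 in the smaller experiment and 3145 with thinned cells in either direction, against 4843 in the main fit. In the larger experiment 4724 genes passed an unadjusted p of 0.05, against 5431 in the main fit.

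The share of cells in each class moved with the treatment. The G0-G1 class held 18.9 ± 2.65% of cells in 48 h treated mice (SD, n = 9) against 49.6 ± 4.30% in untreated mice (SD, n = 6). The difference within experiments was -30.8 percentage points (exact two-sided permutation test, p = 0.000476, the smallest that the labels allow; adjusted p = 0.000714 over 18 tests). The summed level of 5 light-zone markers was also lower, at 353 to 554 CPM in treated and 815 to 1043 in untreated mice. That of 5 dark-zone markers overlapped, at 879 to 1036 CPM in treated and 844 to 926 in untreated mice. The sum of 4 naive or memory B cell markers was 83.1 to 172 CPM against 214 to 337, and that of 4 plasma cell markers 1183 to 1988 against 766 to 1493. Their part in the members' rise was not tested.

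By 72 h none of the members was called between treated and untreated mice, where 8.55% of genes were called in either direction. There 1 member passed an unadjusted p of 0.05 and DESeq2 called none. With cells thinned to 2871 UMIs and shallower ones left out (14.2% of untreated and 8.46% of treated cells), *Ccnb2* was called (0.24, edgeR adjusted p = 0.0376, against 0.03 with all cells at full depth). The parts of depth and of the cells left out were not separated. *Ccnb1* ran from 75.7 to 131 CPM in 7 treated mice (median 99.3) and from 75.2 to 124 in 8 untreated mice (median 95.8). *Cdk1* had medians of 152 and 141 CPM, and *Ccne1* of 28.9 and 28.4. The log2 fold changes lay between -0.06 for *Ccne1* and 0.15 for *Cdc25b*. The approximate 95% intervals reached from -0.28 to 0.16 for *Ccne1*, and from -0.14 to 0.24 for *Ccnb1*, below the latter's change at 48 h.

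The difference between the effects at 48 h and 72 h was tested directly. It was called, and positive, for 9 of 10 members, against 18.5% of genes called higher. It was 0.65 ± 0.15 for *Ccne1* and 0.61 ± 0.13 for *Ccnb1* on the log2 scale (SE, edgeR adjusted p = 0.000872 and 0.000528). *Cdc25b*, at 0.10 ± 0.09 (SE), had an edgeR adjusted p of 0.405. The test called 5 members with no term for the experiment, 4 in cells with the B1-8hi receptor pairing and 1, *Ccne1*, in the smaller experiment alone. With the pairing, *Ccne1* (0.39), *Ccne2* (0.35), *Ccnf* (0.30), *Cdk2* (0.11) and *Cdc25a* (0.26) lost the call, each smaller than in all cells. With no experiment term, values that lost the call stayed near those reported, such as 0.57 for *Ccne2* and 0.45 for *Ccnb2*. With library sizes alone the test called 7, and the share of called genes that were higher went from 58.7% to 37.6%.

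**Figure D3:**
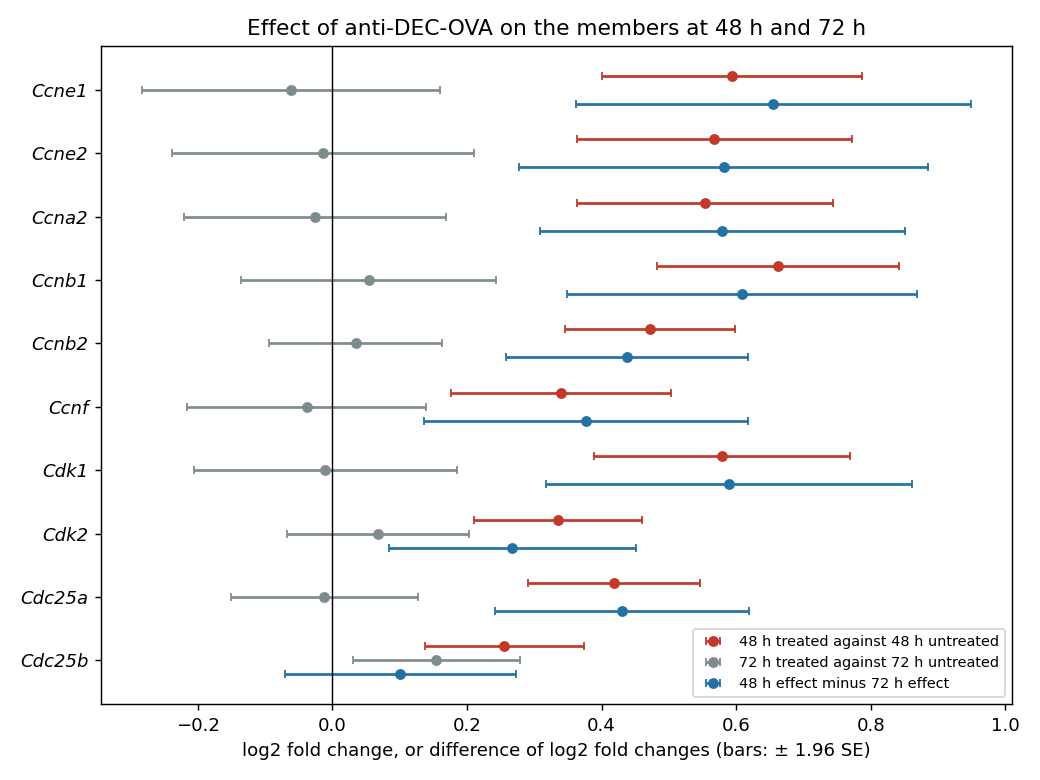
Log2 fold change of treated against untreated mice at 48 h (red) and 72 h (grey), and the difference of the 2 effects (blue), for each member, with bars for approximate 95% intervals. The 48 h values lie between 0.26 and 0.66, whereas those at 72 h lie between -0.06 and 0.15.

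Treated mice were then compared between the times. These values share the 48 h treated mice with the comparison above. At 48 h 9 members stood higher than at 72 h, against 26.8% of genes called higher. *Ccnb1* differed by 0.72 ± 0.09 and *Ccne1* by 0.71 ± 0.10 on the log2 scale (SE, edgeR adjusted p = 1.60e-08 and 1.54e-07). The groups did not overlap for *Ccne1*, *Ccna2*, *Ccnb2* and *Cdk1*, 4 of 10 members against 8.42% of genes. Within each experiment 8 members were apart, all but *Cdk2* and *Cdc25b*, against 22.9% of genes. With library sizes alone 34.3% of called genes were higher in place of 54.6%, and the same 9 members were called. *Cdc25b*, with medians of 68.5 CPM at 48 h and 74.1 at 72 h, was not called (0.08 ± 0.06, SE, edgeR adjusted p = 0.254). The medians and the fold change differ in sign, and with library sizes alone the latter was -0.02, so no direction is given.

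Untreated mice were compared with those at 0 h, which enter both comparisons below. No member was called between 48 h and 0 h, where edgeR called 0.127% of genes. There 1 member passed an unadjusted p of 0.05 and DESeq2 called none. Between 72 h and 0 h, *Cdk2* was called lower, against 2.62% of genes. It ran from 46.6 to 58.2 CPM (median 52.8) in 8 mice at 72 h and from 50.4 to 70.3 (median 62.2) in 9 mice at 0 h, with overlap. The log2 fold change was -0.22 ± 0.06 (SE, edgeR adjusted p = 0.0288), and the call was lost in 7 of 11 alternatives. Among them were the larger experiment alone (-0.25, edgeR adjusted p = 0.0733), the smaller alone (-0.12, edgeR adjusted p = 0.733) and thinned cells (-0.15, edgeR adjusted p = 0.480).

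Within the cell-cycle classes fewer members were called at 48 h. Sums over 1 class hold fewer UMIs than sums over all cells, so fewer calls do not show that changes are missing. The class fits used cells at full depth, and 48 h treated cells gave more UMIs per cell than untreated ones. The part of depth in the values within classes was not tested. In the S class, 6 of 10 members were called higher, against 14.9% of genes called in either direction. *Ccnb1* (0.53 ± 0.11) and *Ccnb2* (0.51 ± 0.09) led on the log2 scale (SE, edgeR adjusted p = 0.000322 and 4.65e-05), followed by *Ccne1* (0.29), *Ccna2* (0.25), *Cdk1* (0.25) and *Ccne2* (0.20). *Cdk2* did not differ detectably there, at 0.01 ± 0.07 (SE, edgeR adjusted p = 0.96). In the G2-M class, *Cdc25a* (0.42), *Cdk2* (0.30) and *Ccnb1* (0.17) were called, against 16.8% of genes. These counts fell to 2 in S and 1 in G2-M in the larger experiment alone.

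Within the G0-G1 class, *Ccnb2* ran from 68.1 to 137 CPM in 48 h treated mice (median 105) and from 36.8 to 51.2 in untreated mice (median 42.6), without overlap. Its log2 fold change was 1.21 ± 0.14 (SE, edgeR adjusted p = 3.90e-08), and it was the only one of 7 members tested in this class to be called, against 7.52% of genes. The median over these 7 was 0.46, and 3 passed an unadjusted p of 0.05. *Ccnb1* (0.60 ± 0.28) and *Ccna2* (0.57 ± 0.27) had wide SEs, so a missing call here does not show a missing change. At 72 h *Ccnb2* stood at 55.9 to 93.2 CPM in treated mice (median 67.4) against 34.5 to 62.7 (median 45.4), with overlap. That change was 0.55 ± 0.14 (SE, edgeR adjusted p = 0.00629), again the only member called in the class, against 9.42% of genes. It was 0.50 in the larger experiment (edgeR adjusted p = 0.0293) and 0.61 in the smaller one, where the edgeR adjusted p was 0.341. *Ccne2*, *Ccnf* and *Cdk1* had too few counts to be tested in G0-G1. At 72 h no member was called in S (5.16% of genes called, 1 member at an unadjusted p of 0.05) or in G2-M (3.45%, 1 member). In the S class of the larger experiment alone, *Ccnb2* was called lower in treated mice at 72 h (-0.52 ± 0.11, SE, edgeR adjusted p = 0.00131), while the smaller one gave 0.21 (edgeR adjusted p = 0.826).

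**Figure D4:**
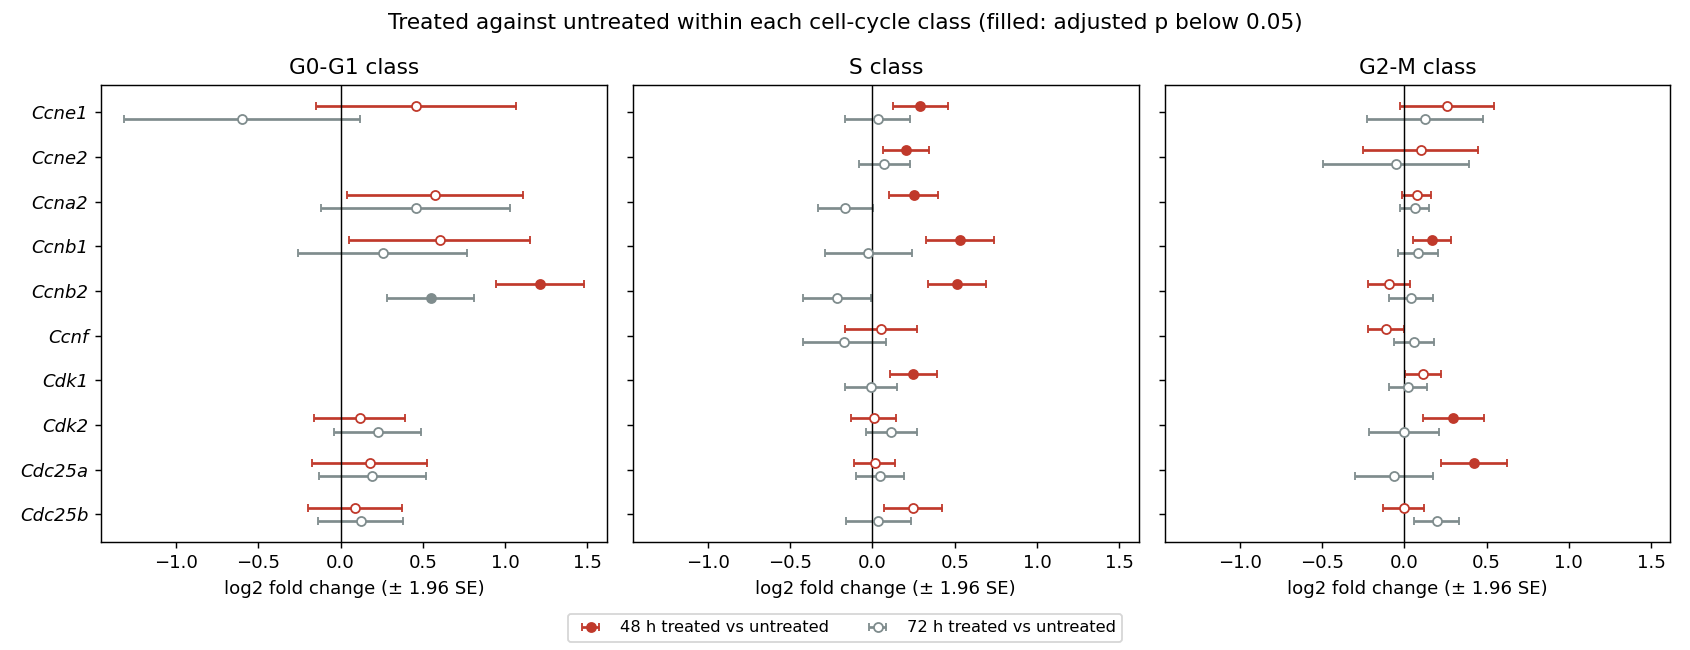
Log2 fold change of treated against untreated mice within each cell-cycle class at 48 h (red) and 72 h (grey), with bars for approximate 95% intervals and filled points for an adjusted p below 0.05. In the G0-G1 class the filled points are those of *Ccnb2*, at 1.21 and 0.55.

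The reporter experiment asked how the members differ between cells sorted for high and low CDK2 activity. All 10 were higher in CDK2hi cells in 7 of 7 mice, and none of the groups overlapped. This has to be read against 36.5% of 10120 genes called higher and 47.2% of genes without overlap. The median log2 fold change of the members was 1.90 against -0.02 over all genes.

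*Cdk1*, *Ccna2* and *Ccnf* differed most, with fold changes too close to rank. *Cdk1* ran from 161 to 200 CPM in CDK2hi cells (median 178) and from 12.5 to 19.3 in CDK2low cells (median 17.96), a log2 fold change of 3.64 ± 0.05 (SE, edgeR adjusted p = 8.60e-27). *Ccna2* ran from 212 to 231 CPM (median 216) against 13.9 to 25.5 (median 21.1), at 3.59 ± 0.06 (SE). *Ccnf* ran from 66.3 to 92.3 CPM (median 76.9) against 6.79 to 8.10 (median 7.27), at 3.56 ± 0.06 (SE). *Ccnb1* followed at 2.75 ± 0.08 (SE), with medians of 94.3 and 17.0 CPM.

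*Ccnb2* differed less than *Ccnb1*, by 1.97 ± 0.06 (SE), with 44.1 to 80.0 CPM in CDK2low cells (median 67.5) beside 214 to 243 in CDK2hi cells (median 226). The E cyclins, the partners of CDK2 in late G1, were 2.82-fold higher for *Ccne1* (SE of the log2 value 0.06) and 3.58-fold higher for *Ccne2* (SE 0.07). *Ccne1* ran from 45.2 to 56.0 CPM (median 48.1) against 14.6 to 26.2 (median 19.3).

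*Cdk2*, whose product's activity the sort was on, differed least. It ran from 71.6 to 76.6 CPM in CDK2hi cells (median 73.1) and from 55.7 to 61.9 in CDK2low cells (median 57.1), a log2 fold change of 0.54 ± 0.04 (SE, edgeR adjusted p = 6.20e-13). *Cdc25a* and *Cdc25b* were near it, at 0.72 ± 0.05 and 0.70 ± 0.03 (SE). Scaling by library size alone moved the median of all genes from -0.02 to -0.22 and the share of called genes that were higher from 48.6% to 29.3%. Under it *Cdk2* stood at 0.34, *Cdc25a* at 0.52 and *Cdc25b* at 0.50, and all 10 members stayed called.

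**Figure D5:**
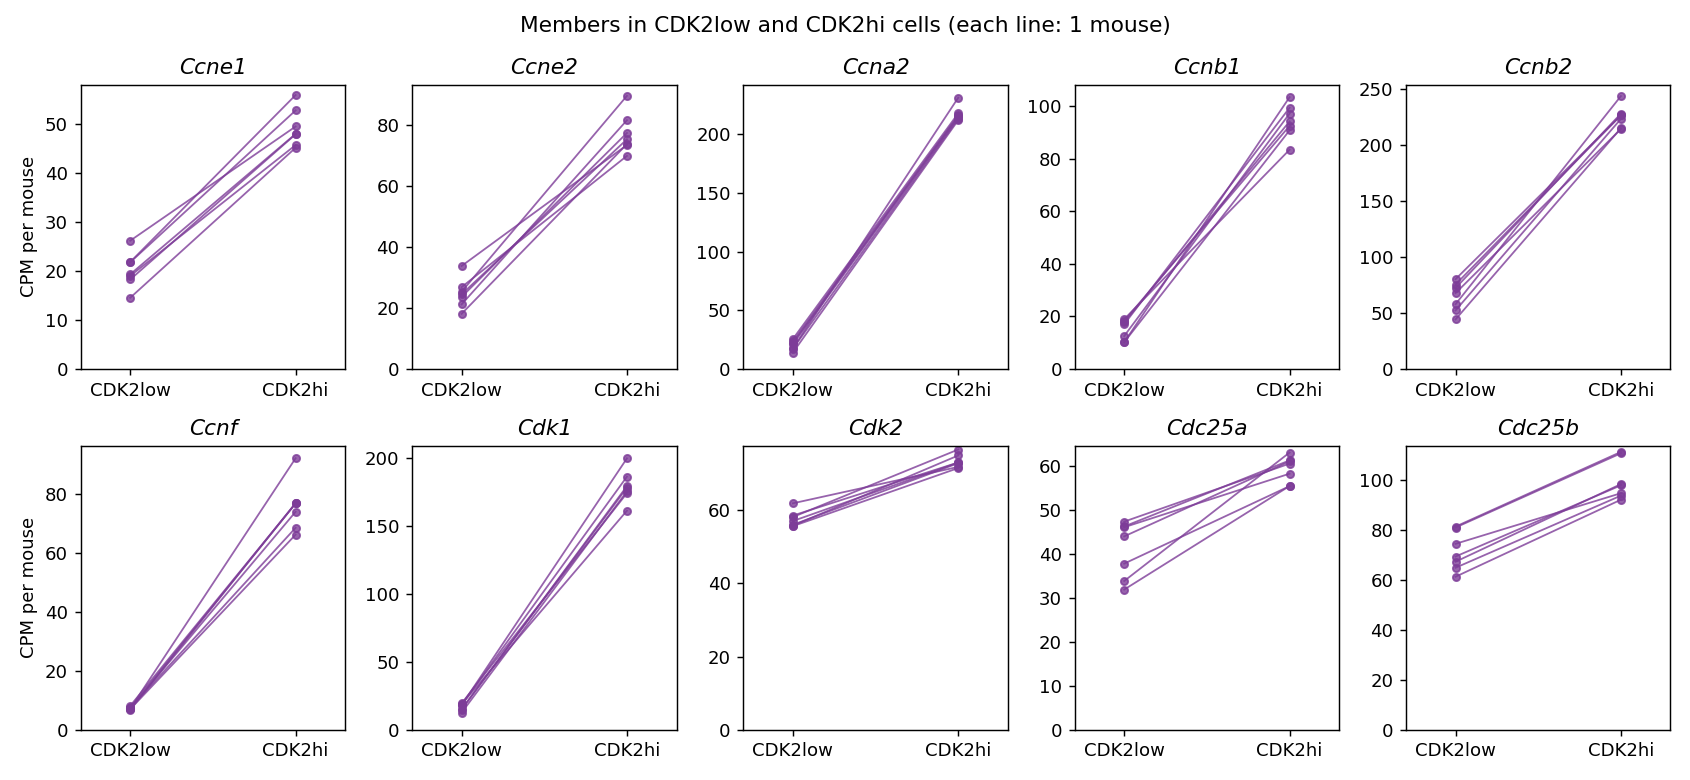
CPM of each member in CDK2low and CDK2hi cells, with a line for each of 7 mice. Every line rises, steeply for *Cdk1*, *Ccna2* and *Ccnf* (log2 fold changes of 3.64, 3.59 and 3.56) and little for *Cdk2* (0.54).

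The fractions also differed in their classes. The G2-M class held 50.3% of CDK2hi and 3.35% of CDK2low cells, and the G0-G1 class 9.21% and 75.9% (means of 7 mice; exact sign-flip permutation test, p = 0.0156 for each class, the smallest that 7 pairs allow, and the same after adjustment). The sum of light-zone markers was 427 to 610 CPM in CDK2hi and 1077 to 1389 in CDK2low cells, and that of naive or memory B cell markers 84.9 to 157 and 302 to 440. The sum of dark-zone markers overlapped, at 824 to 957 CPM in CDK2hi and 843 to 971 in CDK2low cells. Their part in the members' differences was not tested. Inside a class, in an analysis chosen after the data were seen, some members were still called, as was a large share of all genes. In the S class 7 members were called higher, against 52.6% of genes called in either direction, with *Ccna2* at 147 ± 2.00 CPM in CDK2hi and 34.7 ± 5.20 in CDK2low cells (SD, n = 7; log2 fold change 2.25). *Cdk2* (0.12), *Cdc25a* (0.12) and *Cdc25b* (0.13) were not called there, with edgeR adjusted p of 0.0526, 0.0872 and 0.0932. Their CPM, which carry no TMM scaling, were not higher in CDK2hi cells for *Cdk2* (means of 92.5 and 95.2) and *Cdc25b* (70.0 and 73.5) and were alike for *Cdc25a* (85.6 and 85.4), so no direction is given for these 3. In the G0-G1 class 4 of 8 members tested were called higher, against 38.4% of genes in either direction. They were *Ccna2* (2.40), *Cdk1* (1.58), *Ccnb1* (1.53) and *Ccnb2*, which ran from 105 to 286 CPM in CDK2hi and from 33.04 to 58.9 in CDK2low cells.

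*Ccnb2* turned round in the G2-M class, where 3 mice had at least 20 CDK2low cells. There it ran from 510 to 520 CPM in CDK2low cells of these mice and from 287 to 332 in CDK2hi cells of all 7. The fit, which used both fractions of these 3 mice only, gave a log2 fold change of -0.61 ± 0.08 (SE, edgeR adjusted p = 1.62e-07). The 6 other called members were higher in that class, against 21.4% of genes called in either direction, led by *Ccnf* (2.03) and *Cdk1* (1.77).

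The list of other CDK pathway genes held 26, of which 24 had counts enough for the time course. Against untreated mice at 48 h, 16 of the 24 were higher and 1 lower, where 26.3% of all genes were called higher and 21.1% lower. Of the mitotic entry genes 5 of 6 were higher, led by *Aurka* (0.73 ± 0.10) and *Plk1* (0.70 ± 0.10), kinases that act with CDK1, on the log2 scale (SE). Of the cyclin destruction genes 6 of 7 were higher, such as *Ube2s* (0.63), while *Fbxw7*, which marks cyclin E for destruction, was lower (-0.44 ± 0.07, SE, edgeR adjusted p = 3.91e-06). Of the genes that restrain CDKs only *Pkmyt1*, a kinase that inhibits CDK1, was called (0.21 ± 0.08, SE), 1 of 5, which is near the share of all genes called higher. Of the CDK activation genes 4 of 6 were higher. The sister genes *Ccna1* and *Ccnb3* were too low to test. At 72 h 1 of 24 genes was called, no more than the 8.55% of all genes called there. It was *Cdkn1b*, a CDK inhibitor, which was lower in treated mice (-0.49 ± 0.12, SE, edgeR adjusted p = 0.00686).

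Between CDK2hi and CDK2low cells, 18 of 23 pathway genes tested were higher and 3 lower, where 36.5% of all genes were called higher and 38.6% lower. *Plk1* (3.74 ± 0.08), *Aurka* (3.29 ± 0.08) and *Fbxo5* (3.06 ± 0.06), an inhibitor of the complex that destroys cyclins, differed most on the log2 scale (SE). The 3 lower genes were *Fbxw7* (-0.51 ± 0.03), *Cdk7* (-0.19 ± 0.05) and *Mnat1* (-0.16 ± 0.05, SE for each), of which *Cdk7* and *Mnat1* encode parts of the CDK-activating kinase. *Ccnh*, which encodes a further part of that kinase, was higher (0.27 ± 0.04, SE, edgeR adjusted p = 5.01e-07). In this fit the parts of the kinase did not move together. Scaling by library size alone moved the median of all genes from -0.02 to -0.22, so values this small depend on the scaling.

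Genes with the most similar pattern over the 39 time-course mice were sought by Pearson's r of log2 CPM, after removing experiment means, among 6808 genes. These values are descriptions, since the mice share treatment and depth. *Ccna2* and *Cdk1* were both nearest to *Birc5* (r = 0.97 for each) and then *Ckap2l*, and *Ccnb1* to *Ube2c* (0.96) and *Tubb4b*. *Ccnb2* was nearest to *Cdc20* (0.94) and *Cdca3*, and *Ccnf* to *Nusap1* (0.94) and *Spc25*. *Ccne1* was nearest to *Dut* (0.91) and *Mcm3*, and *Ccne2* to *Cdc6* (0.91) and *Mcm3*. The nearest genes to *Cdc25a* were *Etf1* (0.87) and *Ywhae*, to *Cdk2* *Polr2g* (0.76) and *Myl4*, and to *Cdc25b* *Ift22* (0.61) and *Ppp6c*. Among the members, *Ccna2* and *Cdk1* were closest (0.95), while *Cdc25b* and *Ccne1* were at -0.04.

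In the mCherry experiment no member was called between treated and untreated mice at day 10, where 1.95% of 9078 genes were called. None passed an unadjusted p of 0.05 and DESeq2 called none. *Ccnb1* was at 82.7, 87.8 and 110.2 CPM in treated mice and at 75.7, 82.9 and 83.1 in untreated ones. Between untreated mice at day 10 and mice at day 7 none was called, where 0.65% of genes were called, although *Ccne1* (-0.41) and *Cdc25b* (-0.22) passed an unadjusted p of 0.05 and DESeq2 called none. With cells thinned to 1007 UMIs and shallower ones left out, the *Ccne1* value turned to 0.08. The groups did not overlap for *Cdc25b*, at 152 to 159 CPM and 168 to 188, 1 of 10 members against 13.1% of genes. These libraries were shallow, with 5 to 102 UMIs of *Ccne1* or *Ccne2* per mouse. *Ccnf*, *Cdk2* and *Cdc25a* had as few as 11, 12 and 18 UMIs in a mouse, and each group held 3 mice. Modest changes of any member may have been missed, but the size of change that could be detected was not tested.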

How the data were processed

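Single-cell 5′ libraries of GC B cells were sequenced with hashtag libraries. The authors aligned reads to mm39 and deposited UMI counts per gene and barcode; the submitters' processing notes name Cell Ranger 6.0.1 and Seurat 5.1.0, and the paper's methods another Cell Ranger version. Hashtag counts were deposited likewise. Cells were assigned to mice with HTODemux (Seurat 5.3.0, quantile 0.99), which removed cells with hashtags of more than 1 mouse; no further doublet caller was run. Cells were dropped below 200 detected genes or at 10% mitochondrial UMIs and above. The smaller time-course experiment lost 3036 cells to the mitochondrial limit and the larger 332. In the reporter experiment 7 of 9 listed mice had cells.

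UMIs were summed per mouse, and edgeR 4.0.16 (quasi-likelihood, TMM, filterByExpr, Benjamini-Hochberg over all genes tested, threshold 0.05) was fitted to these counts with a term for the experiment, or for the mouse in the reporter experiment, where both fractions came from the same animals. DESeq2 1.42.0 was an alternative, as were other scalings, filters, cell sets and single experiments. The code was tested on simulated data. A first cut-off for the share of changed genes recovered was missed and then replaced by criteria on false calls, sign and bias, with larger changes added to the simulation. Cell-cycle classes came from Seurat's CellCycleScoring without the members, and class fits used mice with at least 20 cells. Every member is accounted for in each main comparison; of the pathway lists, the 3 called genes that changed most at 48 h and in CDK2hi cells are named, and for each member the 2 genes with the highest r. *Fbxw7*, *Cdk7*, *Mnat1*, *Ccnh*, *Pkmyt1* and *Cdkn1b* were named after their values were seen. Within-class fits by experiment and for the reporter fractions were added after the data were seen. Members and lists were chosen with earlier results of these data known. *Ccnb1* has a processed pseudogene, so its counts may be affected by shared reads. Hours count from day 7. Replicates are separate mice. UMI totals limit the precision.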

Additional observations from a re-analysis of the deposited data

Results flagged for a closer look

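The effect of treatment differed between 48 h and 72 h for 9 members by the test of the difference itself (edgeR quasi-likelihood test). By the same test 18.5% of all genes were called higher. On the log2 scale the effect at 48 h minus that at 72 h was 0.65 for *Ccne1*, 0.58 for *Ccne2*, 0.58 for *Ccna2*, 0.61 for *Ccnb1*, 0.44 for *Ccnb2*, 0.38 for *Ccnf*, 0.59 for *Cdk1*, 0.27 for *Cdk2* and 0.43 for *Cdc25a*. Only 4 members were called in cells with the B1-8hi receptor pairing and 1 in the smaller experiment alone.

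In 7 of 70 member and group combinations 1 mouse stood far from the others of its group by Dixon's criterion, where chance gives about 1 in 20 groups. Time-course groups pooled both experiments, whose levels differed for some members. *Ccne2* was at 25.7 CPM in 1 mouse at 0 h, with the next at 42.5, and at 64.6 CPM in 1 untreated mouse at 48 h, with the next at 41.4. That untreated mouse, 1 of 2 from the smaller experiment, also had the lowest *Cdk1*, at 122 CPM, with the next at 140.0. *Cdc25a* reached 61.3 CPM in 1 treated mouse at 72 h. In CDK2hi cells of 1 mouse *Ccna2* reached 231 CPM and *Ccnf* 92.3, and in CDK2low cells of another mouse *Ccnf* reached 8.10 CPM.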

How the results depend on the processing

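All 10 members stayed higher in CDK2hi cells in 15 of 15 alternatives, including the fit with no replicate block (7052 genes called, against 7596 with the mouse block), and in each fit that left out 1 mouse. At 48 h, treated against untreated, 105 of 110 member values kept direction and call. The 5 that lost the call were the 4 given for the smaller experiment and *Cdc25b* with no term for the experiment (0.25, edgeR adjusted p = 0.242). Of the differences between the effects, 22 of 110 lost the call. With thinned cells *Ccnb2* was called between treated and untreated mice at 72 h (0.24, edgeR adjusted p = 0.0376). With library sizes alone the share of called genes that were higher went from 40.6% to 51.8% for 72 h untreated against 0 h, and with DESeq2 from 46.2% to 68% for 48 h untreated against 0 h. The cause of these changes was not tested.

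Counts of called genes moved by over 1.5 times as follows. With no term for the experiment they were 2680 (48 h treated against untreated), 217 (the same at 72 h), 3104 (treated, 48 h against 72 h), 5 (48 h untreated against 0 h), 77 (72 h untreated against 0 h) and 1222 (difference of effects). In the same order thinned cells gave 3145, 422, 2702, 7, 196 and 1675, and the smaller experiment alone 2149, 22, 2661, 0, 3 and 768 (edgeR; the 0 had 774 genes at an unadjusted p below 0.05). For 48 h untreated against 0 h, DESeq2 called 25, no low-count filter 21 and the B1-8hi pairing 4. The pairing gave 1984 for the difference of effects, and the groups compared alone 256 for 72 h untreated against 0 h. In the mCherry experiment, treated against untreated and then untreated against day 7, DESeq2 called 100 and 35, no low-count filter 280 and 116, and leaving out 1 mouse 55 to 235 and 7 to 82; thinned cells called 106 in the former. Within classes, members called at 48 h were 2 (S) and 1 (G2-M) in the larger experiment and 0 (G2-M) in the smaller. At 72 h they were 1 (S) in the larger and 0 (G0-G1) in the smaller. Of these counts of 0, 3 and 1 members had an unadjusted p below 0.05 (edgeR).

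The signs that turned were of changes that were called neither in the reported fit nor under the alternative. For 72 h treated against untreated (log2) these were, with no experiment term or no cell filter, *Ccne2* 0.0023 and 0.0020; thinned, *Ccna2* 0.048, *Ccnf* 0.074 and *Cdc25a* 0.066; highest hashtags, *Cdk1* 0.010; with the pairing, *Ccne1* 0.027, *Ccne2* 0.064, *Ccnb2* -0.0015, *Cdk1* 0.026 and *Cdc25a* 0.044. The larger experiment gave *Ccna2* 0.014, *Ccnf* 0.00095 and *Cdk1* 0.024, and the smaller *Ccne1* 0.025, *Ccne2* 0.21, *Ccnb1* -0.038 and *Cdc25a* 0.0093. The share in G0-G1 turned to 0.93 points when thinned, which throughout also leaves out shallower cells. For 48 h against 72 h treated, *Cdc25b* was -0.017 without TMM and -0.0037 with the pairing, where its difference of effects was -0.040.

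For 48 h untreated against 0 h, DESeq2 gave *Ccna2* 0.0073 and *Cdk1* 0.025. *Cdk1* was 0.0061 with no low-count filter, 0.012 with no experiment term, 0.0015 thinned, 0.015 with the pairing and 0.0067 with the groups compared alone. Thinned, *Ccne2* was 0.073. With the pairing *Ccna2* was 0.0027 and *Cdc25b* 0.020. The larger experiment gave *Ccnf* -0.023 and *Cdc25a* -0.099, and the smaller *Ccne1* 0.048, *Ccne2* 0.13, *Ccna2* 0.20, *Ccnb2* -0.024, *Cdk1* 0.14 and *Cdc25b* 0.0028. For 72 h untreated against 0 h, *Ccnb2* was 0.0043 with DESeq2, 0.0063 without TMM, 0.00091 with no low-count filter, 0.0072 with no cell filter, 0.032 with the pairing and 0.026 in the larger experiment. Thinned, *Ccne2* was 0.035, *Ccnf* -0.12, *Cdk1* -0.0069 and *Cdc25a* 0.052. The larger experiment gave *Ccnb1* -0.041 and *Cdk1* -0.10, and the smaller *Ccne1* 0.020, *Ccna2* 0.14, *Cdc25a* 0.032 and *Cdc25b* 0.043.

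In the mCherry experiment, treated against untreated, *Ccnb2* was -0.00050 with no cell filter. Thinned, *Ccna2* was -0.019, *Ccnb1* -0.0055 (from 0.21) and *Ccnb2* -0.021, and for untreated against day 7 *Ccne1* was 0.079 (from -0.41). Leaving out 1 mouse gave, for the former, *Ccnb2* -0.055 to 0.064, *Ccnf* -0.13 to 0.058, *Cdk2* -0.0066 to 0.26 and *Cdc25a* -0.11 to 0.26. For the latter it gave *Ccna2* -0.034 to 0.098, *Ccnb1* -0.042 to 0.057, *Ccne2* -0.29 to 0.053 and *Cdk1* -0.014 to 0.025.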
